A study of Homo sapiens with 6 samples.

Results

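Cohesin and condensin are the ring-shaped complexes that hold and fold chromosomes, and the genes described here encode 10 of their subunits. The members were taken by gene name from the deposited table of 50868 genes, and each of the 10 matched 1 row. SMC1A, SMC3, RAD21, STAG1 and STAG2 encode cohesin, and SMC2, SMC4, NCAPD2, NCAPG and NCAPH encode condensin I. RNA sequencing was done on CUTLL1 cells, a human malignant T-cell line, given a short hairpin RNA (shRNA) by lentivirus. The 3 shAURKB libraries carried an shRNA against AURKB, the gene of the mitotic kinase Aurora B, and the 3 shGFP libraries carried a control shRNA named for GFP. Both arms were selected with puromycin for 48 h, and total RNA was sequenced from 3 biological replicates each, per the series' design text. The labels name a single AURKB shRNA arm, so effects of the knockdown and of that hairpin cannot be told apart.

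In cohesin, the SMC1A and SMC3 proteins form a heterodimer whose heads are closed by the kleisin RAD21, and STAG1 or STAG2 binds RAD21. The ring entraps sister DNAs from replication until anaphase and extrudes chromatin loops in interphase. In condensin, SMC2 and SMC4 form the heterodimer, and condensin I adds the kleisin NCAPH with the HEAT-repeat subunits NCAPD2 and NCAPG, whereas condensin II uses NCAPH2, NCAPD3 and NCAPG2. Condensin compacts chromosomes in mitosis, and Aurora B is known to promote the binding of condensin I to mitotic chromosomes. STAG2 is also known as a recurrently mutated tumour suppressor gene in leukaemia.

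The libraries held 10154187 to 11922979 counts, of which the 10 members took 0.37% to 0.386% in shGFP and 0.347% to 0.351% in shAURKB. AURKB fell from 97 to 107 CPM in shGFP to 36 to 43.9 CPM in shAURKB (log2 fold change -1.35 ± 0.08 SE, edgeR adjusted p = 2.54e-04). CPM is the count scaled to the library total with TMM, a correction for library composition. The members' shares above and the sums of cell type markers below were scaled to the library total alone, without TMM. The TMM factors were 1.02 in each shGFP library and 0.979 to 0.984 in shAURKB. All 8 T-lineage markers checked were detected, summing to 2370 to 2510 CPM in shGFP and 2652 to 2777 CPM in shAURKB, without overlap. B-cell markers summed to 20.7 to 22.6 CPM in shGFP and 15.8 to 19.6 CPM in shAURKB, also without overlap, with PAX5 and MS4A1 at 0 in every library. Myeloid markers summed to at most 1.09 CPM, with LYZ at 0, and 3 of 3 erythroid markers had no read. In shGFP replicate 1, fibroblast markers summed to 17.8 CPM and epithelial markers to 9.31 CPM, against at most 0.394 and 1.09 CPM in the other libraries. The part of these markers in the members' values was not tested, and calls without that library are given beside them. In bulk RNA, fewer cells of a type or cell cycle phase and less RNA per cell cannot be told apart.

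Of the 10 members, all of which passed the low-count filter, 1 rose and 3 fell in shAURKB (adjusted p below 0.05). SMC2 rose by 17.7%, NCAPG fell by 17.2%, NCAPD2 fell by 11.3% and RAD21 fell by 8.39%. The 4 calls correspond to 40% of the members, against 23.3% of all 14818 tested genes (12.5% called higher and 10.9% lower; higher genes made up 53.4% of calls, or 38.8% with upper-quartile scaling). The members are abundant mRNAs, and among the 2410 genes of at least 100 CPM 42.1% were called (31.2% higher, 10.8% lower), a bound chosen after the members' levels were seen. The 4 calls were therefore near the share for genes of like abundance. The members' median log2 fold change was -0.03, against 0.09 for those abundant genes and -0.00 for all tested genes. The arms did not overlap in 5 of the 10 members, against 42.6% of all tested genes and 59.5% of the abundant ones. Without shGFP replicate 1, 3 members were called: NCAPG (-0.29) and NCAPD2 (-0.21) as before, and SMC4 (-0.25). In that fit 15.4% of 15071 tested genes and 32.1% of the abundant ones were called. By complex, 3 of 5 condensin and 1 of 5 cohesin subunits were called. The difference between the complexes was not tested.

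**Figure D1:**
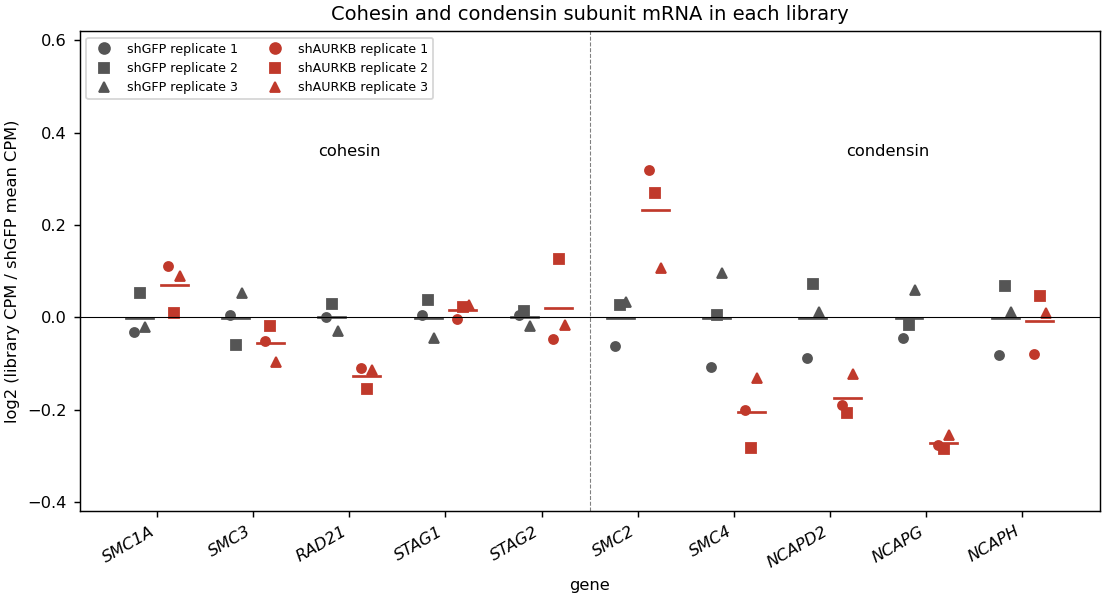
Level of each subunit mRNA in each library, as the log2 ratio of its CPM to the shGFP mean of that gene, with grey for shGFP, red for shAURKB and horizontal bars for arm means (n = 3 libraries each). The red points of NCAPG, NCAPD2, SMC4 and RAD21 lie below and those of SMC2 above all grey points of the same gene.

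SMC2 and SMC4 form the SMC core of condensin, and of these SMC2 was called. SMC2 (ENSG00000136824, GRCh38 chromosome 9, 104094260 to 104141417, plus strand) stood at 164, 174 and 175 CPM in shGFP replicates 1 to 3 and at 213, 206 and 184 CPM in shAURKB replicates 1 to 3. All shAURKB values were above all shGFP values, with replicate 3 closest to the controls. The log2 fold change was 0.24 ± 0.06 SE (edgeR adjusted p = 0.0357). This call survived the omission of shAURKB replicate 3 and failed on that of each of the other libraries (edgeR adjusted p = 0.0713 to 0.105), and also with upper-quartile scaling (0.18, adjusted p = 0.0844).

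SMC4 (ENSG00000113810, chromosome 3, 160399274 to 160434962, plus strand), the heterodimer partner of SMC2, stood at 379, 409 and 436 CPM in shGFP and at 355, 336 and 372 CPM in shAURKB. Its arms did not overlap, and every shAURKB value was the lower. The log2 fold change of -0.20 ± 0.06 SE (95% interval -0.35 to -0.06) missed the threshold at an edgeR adjusted p of 0.0536. It passed without shGFP replicate 1 (edgeR adjusted p = 0.0331), under a filter of 1 CPM in 3 libraries (edgeR adjusted p = 0.0488) and when scaled to the upper quartile (edgeR adjusted p = 0.0237). Neighbours on the opposite strand share exonic bases with SMC4: the ciliary gene IFT80 shares 607 and TRIM59 1561. Their reads were fewer in shAURKB too, at 272 to 341 against 428 to 478 for IFT80 and 916 to 967 against 1017 to 1255 for TRIM59. Whether the counting used strand is not given in the sources used here, and the part of shared reads in the SMC4 value was not tested.

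NCAPG (ENSG00000109805, chromosome 4, 17810902 to 17844862, plus strand), a HEAT-repeat subunit of condensin I, had the largest fall among the called members. It stood at 168, 171 and 181 CPM in shGFP and at 143, 142 and 145 CPM in shAURKB. The shAURKB libraries lay close together and below every control. This was a log2 fold change of -0.27 ± 0.04 SE (edgeR adjusted p = 5.67e-03), and NCAPG passed in all 13 alternative settings, with adjusted p from 1.35e-03 to 0.0258. LCORL, on the opposite strand, shares 1631 exonic bases with NCAPG, and had 566 to 659 reads per shGFP library and 352 to 485 per shAURKB library. NCAPG itself had 1765 to 2187 reads in shGFP and 1459 to 1635 in shAURKB, and the part of shared reads in its difference was not tested.

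NCAPD2 (ENSG00000010292, chromosome 12, 6493356 to 6531955, plus strand), the other HEAT-repeat subunit, stood at 530, 592 and 567 CPM in shGFP and at 493, 487 and 517 CPM in shAURKB. The highest shAURKB value, in replicate 3, lay just under the lowest control, in replicate 1. Its log2 fold change was -0.17 ± 0.05 SE (edgeR adjusted p = 0.0401). The call held without shGFP replicate 1 but was lost when any other library was left out (edgeR adjusted p = 0.0599 to 0.123) and with DESeq2 (adjusted p = 0.0579). MRPL51, which shares 486 exonic bases on the opposite strand, had 904 to 1061 reads in shGFP and 1010 to 1190 in shAURKB.

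NCAPH (ENSG00000121152, chromosome 2, 96335787 to 96373845, plus strand), the kleisin of condensin I, stood at 136, 151 and 145 CPM in shGFP and at 136, 149 and 145 CPM in shAURKB. The arms overlapped almost fully. The log2 fold change was -0.01, with a 95% interval of -0.14 to 0.13, or 0.908-fold to 1.09-fold.

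Sequence before the transcription start was described next. The arms did not overlap in 4 of 5 condensin genes, among them SMC4, which was not called. Of all tested genes 42.6% did not overlap, and of those of at least 100 CPM 59.5%. RefSeq promoter windows (GRCh38.p14, 250 bases before to 50 after the start) were matched by symbol for 9 members, with 14 windows in all; RAD21 had no entry. The stretches below run from 150 bases before to 10 after the start, 5′ to 3′ on the plus strand, for the condensin genes whose arms did not overlap. Capitals mark the motifs searched. The NCAPG stretch is chr4:17810829-17810988, that of SMC4 chr3:160399500-160399659, that of NCAPD2 chr12:6493952-6494111 and that of SMC2 chr9:104094159-104094318.
NCAPG: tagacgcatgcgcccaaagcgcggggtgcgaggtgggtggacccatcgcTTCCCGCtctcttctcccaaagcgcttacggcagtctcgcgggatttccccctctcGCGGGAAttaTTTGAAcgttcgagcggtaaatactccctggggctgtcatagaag
SMC4: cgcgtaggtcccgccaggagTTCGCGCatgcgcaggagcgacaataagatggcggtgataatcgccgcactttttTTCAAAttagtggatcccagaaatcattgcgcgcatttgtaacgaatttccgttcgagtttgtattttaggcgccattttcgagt
NCAPD2: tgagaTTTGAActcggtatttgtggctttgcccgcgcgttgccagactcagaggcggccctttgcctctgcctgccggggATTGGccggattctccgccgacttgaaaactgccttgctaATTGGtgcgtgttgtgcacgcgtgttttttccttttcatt
SMC2: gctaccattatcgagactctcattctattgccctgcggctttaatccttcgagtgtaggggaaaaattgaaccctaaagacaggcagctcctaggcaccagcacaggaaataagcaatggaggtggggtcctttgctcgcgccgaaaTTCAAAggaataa

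The motifs were searched on both strands. The CHR, an element known from promoters of genes used in G2 and mitosis, was read as TTTGAA or, in its other form, as TTTAAA. The CCAAT box was read by its name's letters, and the E-box bound by MYC and MAX as CACGTG. For E2F, the core was any of 3 forms, of which the first was TTGGCGC, the next was spelled TTCGCGC and the last was spelled TTCCCGC. The reverse CCAAT box and TTGGCGC can overlap. A CHR was present in 6 of the 14 member windows, against 24.0% of the 35116 windows in the table. By gene, at least 1 window held it in all 5 condensin genes and in 1 of 4 cohesin genes (SMC3). SMC2 and SMC4 have more than 1 window each, of which 1 held it. For this and the other motifs, no share by gene was computed over all genes, so the counts by gene have no background. Its first base lay at position -35 in NCAPG, -75 in SMC4, -145 in NCAPD2, -3 in SMC2 and 33 in NCAPH, where negative positions count back from the start. The NCAPH match lies after the start, and its window was the 1 of 14 whose transcribed bases were not found in a GENCODE transcript. An E2F core was present in 5 of the 14 member windows, against 11.03% of all windows. By gene, at least 1 window held it in 3 of 4 cohesin genes (SMC1A, STAG1 and STAG2) and in 2 of 5 condensin genes (SMC4 and NCAPG). A CCAAT box was present in 5 of the 14 member windows, against 34.6% of all windows. By gene, it was held by 2 of 4 cohesin genes (STAG1 and STAG2) and by 2 of 5 condensin genes (NCAPD2 and NCAPH). In NCAPD2 there were 4, of which 2 lie in the printed stretch. No member window held CACGTG, which 7.26% of all windows did. Of the members that held a CHR, SMC2 was called higher, NCAPG and NCAPD2 were called lower, and SMC4, NCAPH and SMC3 were not called. The part of any of these motifs in the differences between the arms was not tested.

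Of the cohesin subunits, RAD21 was called. RAD21 (ENSG00000164754, chromosome 8, 116845935 to 116874866, minus strand), the kleisin that separase cuts at anaphase, stood at 920, 939 and 902 CPM in shGFP and at 853, 826 and 851 CPM in shAURKB. All shAURKB libraries lay below all controls, with a log2 fold change of -0.13 ± 0.03 SE (edgeR adjusted p = 0.0232). That call held without shGFP replicate 3 and was lost when any other library was left out (edgeR adjusted p = 0.0542 to 0.0796), and with DESeq2 (adjusted p = 0.0696). UTP23, on the opposite strand, shares 518 exonic bases with RAD21 and had 652 to 708 reads in shGFP and 511 to 603 in shAURKB. RAD21 had 9671 to 10915 and 8469 to 9737 reads in the same libraries, and the part of shared reads was not tested.

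The SMC subunits of cohesin were not called. SMC1A (ENSG00000072501, chromosome X, 53374149 to 53422728, minus strand) stood at 603, 640 and 608 CPM in shGFP and at 667, 621 and 657 CPM in shAURKB. Its arms overlapped through shAURKB replicate 2. The log2 fold change was 0.07 (95% interval -0.02 to 0.17, edgeR adjusted p = 0.241). SMC3 (ENSG00000108055, chromosome 10, 110567691 to 110604636, plus strand) stood at 257, 246 and 265 CPM in shGFP and at 247, 252 and 239 CPM in shAURKB. Its values overlapped too, at a log2 fold change of -0.06 (95% interval -0.16 to 0.04, edgeR adjusted p = 0.385).

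STAG1 and STAG2 encode the alternative subunits that bind RAD21, and neither was called. STAG1 (ENSG00000118007, chromosome 3, 136336233 to 136752403, minus strand) stood at 112, 115 and 109 CPM in shGFP and at 112, 114 and 114 CPM in shAURKB. STAG2 (ENSG00000101972, chromosome X, 123960212 to 124422664, plus strand) stood at 368, 371 and 362 CPM in shGFP and at 355, 400 and 363 CPM in shAURKB, where replicate 2 was the highest of all 6 libraries. In both genes the arms overlapped. The log2 fold changes were 0.02 (95% interval -0.09 to 0.12) for STAG1 and 0.02 (95% interval -0.09 to 0.14) for STAG2, with edgeR adjusted p of 0.837 and 0.778. Their signs turned with upper-quartile scaling (-0.04 and -0.03), and without shAURKB replicate 2 for STAG2 (-0.03) and shGFP replicate 3 for STAG1 (-0.00). PCCB shares 1664 exonic bases with STAG1 on the opposite strand and had 1006 to 1232 reads in shGFP and 1182 to 1220 in shAURKB. STAG1 itself had 1185 to 1314 and 1166 to 1275.

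Levels of different genes can be compared only per length. In deposited FPKM (fragment counts scaled by gene length and library total), which are scaled by the total count and not by TMM, shGFP levels ran from 94.3 ± 1.87 for RAD21 to 8.30 ± 0.24 for STAG1 (SD, n = 3). Below RAD21 came SMC3 at 59.6 ± 2.33, NCAPD2 at 57.0 ± 3.12 and SMC1A at 55.8 ± 1.77, whose library values overlapped. STAG2 followed at 32.9 ± 0.385, NCAPG at 27.9 ± 1.04, NCAPH at 24.6 ± 1.26, SMC4 at 22.7 ± 1.58 and SMC2 at 16.7 ± 0.591. Of these, NCAPH and SMC4 overlapped. In shAURKB, SMC4 and SMC2 met at 19.0 ± 0.946 and 19.0 ± 1.48 FPKM, and NCAPG at 22.3 ± 0.173 lay below NCAPH at 23.6 ± 1.04.

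This order depends on the length used. The length behind the FPKM, computed from the counts, was 18252 bases for SMC4 against 5471 in its longest coding transcript of GENCODE release 29, and 9910 against 3749 for RAD21, but 4359 against 4114 for SMC3. With counts divided by the library total, without TMM, and by the kilobases of the longest coding transcript, an alternative chosen after seeing the data, RAD21 stood at 249 ± 4.94 in shGFP, NCAPD2 at 103 ± 5.64 and SMC4 at 75.7 ± 5.28. SMC3 (63.2 ± 2.47), SMC1A (63.1 ± 2.00) and STAG2 (61.6 ± 0.721) came next, and NCAPH (49.5 ± 2.53), NCAPG (37.8 ± 1.41), SMC2 (28.96 ± 1.022) and STAG1 (18.8 ± 0.542) followed. SMC4 thus moved from rank 8 to rank 3, while RAD21 kept rank 1 and SMC2 and STAG1 kept ranks 9 and 10. In shAURKB this length put SMC4 at 63.5 ± 3.16 and SMC2 at 32.9 ± 2.56, so they met only in FPKM. By this length NCAPG lay below NCAPH in both arms, at 30.2 ± 0.234 and 47.5 ± 2.10 in shAURKB. STAG1 made up 20.1% ± 0.281 of the summed STAG1 and STAG2 FPKM in shGFP and 20.1% ± 0.934 in shAURKB (SD, n = 3), or 23.4% and 23.3% per longest coding transcript.

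**Figure D2:**
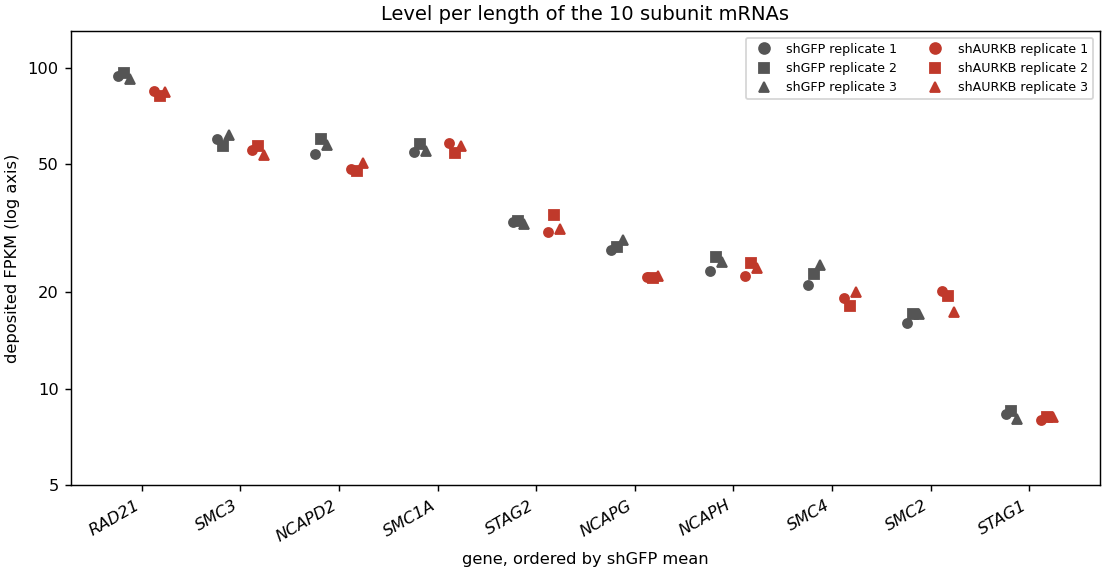
Deposited FPKM of each subunit mRNA in each library on a log axis, ordered by the shGFP mean, with grey for shGFP and red for shAURKB (n = 3 libraries each). RAD21 is highest at 81.8 to 96.1 FPKM and STAG1 lowest at 7.99 to 8.52 FPKM in every library.

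Ratios within a library cancel its scaling, and 6 pairs of subunits were compared. The ratios themselves depend on the lengths behind the FPKM, so they do not give the proportions of the subunits. Their differences between the arms do not depend on length. The SMC4 to SMC2 ratio of FPKM was 1.31, 1.34 and 1.42 in shGFP and 0.946, 0.926 and 1.15 in shAURKB. The arms did not overlap, and the ratio was lower by 0.44 on the log2 scale with AURKB shRNA: the difference was -0.44, from 0.44 ± 0.06 to 0.00 ± 0.17 (SD, n = 3; exact permutation p = 0.1, two-sided, adjusted p = 0.2 over the 6 pairs). With 3 libraries against 3, this exact permutation test can give no p below 0.1. Leaving out 1 library kept this difference between -0.53 and -0.38.

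Condensin I subunits were also set against their condensin II counterparts. The NCAPG to NCAPG2 ratio was 1.45, 1.39 and 1.44 in shGFP and 1.19, 1.296 and 1.21 in shAURKB. NCAPD2 to NCAPD3 stood at 2.30, 2.56 and 2.47 against 2.10, 2.08 and 2.19. In both pairs the arms did not overlap, and the log2 differences were -0.21 and -0.20 (exact permutation p = 0.1 and adjusted p = 0.2 each). NCAPH to NCAPH2 stood at 1.04, 1.22 and 1.24 against 1.016, 1.07 and 1.05, with arms that overlapped (log2 difference -0.16, exact permutation p = 0.3, adjusted p = 0.36). In cohesin, SMC1A to SMC3 overlapped between the arms (log2 difference 0.13, exact permutation p = 0.2, adjusted p = 0.3). STAG2 to STAG1 was 3.97, 3.90 and 4.04 in shGFP and 3.85, 4.27 and 3.85 in shAURKB, a log2 difference of 0.01 (exact permutation p = 1, adjusted p = 1) that turned to -0.04 without shAURKB replicate 2.

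**Figure D3:**
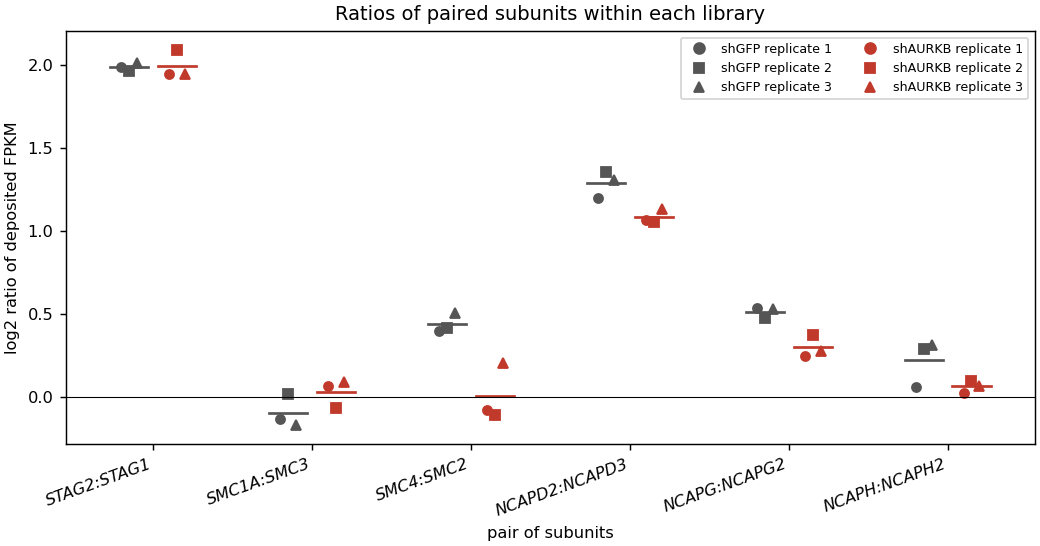
Log2 ratio of deposited FPKM for 6 pairs of subunits in each library, with grey for shGFP, red for shAURKB and bars for arm means (n = 3 libraries each). The red points of SMC4 to SMC2, NCAPD2 to NCAPD3 and NCAPG to NCAPG2 lie below all grey points of the pair, while those of the other pairs overlap.

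The partners of the complexes were read from the same fit, in 7 lists of 35 genes. Of all 14818 tested genes 23.3% were called, and of those of at least 100 CPM 42.1%. An unadjusted edgeR p below 0.05 was found for 5489 of the 14818. The lists were not tested against these shares. None of the 3 condensin II subunits was called by edgeR, DESeq2 or limma-voom (median log2 fold change 0.03), and 1 had an unadjusted p below 0.05. This was the kleisin gene NCAPH2, at 127, 121 and 114 CPM in shGFP and 131, 135 and 135 CPM in shAURKB (log2 fold change 0.15 ± 0.05 SE, edgeR adjusted p = 0.0809). NCAPD3 and NCAPG2 had log2 fold changes of 0.03 and -0.06. Of 5 genes for loading and release of cohesin, 1 fell and 4 were not called (median -0.06). PDS5B, which encodes a HEAT-repeat regulator of cohesin release and acetylation, went from 137, 134 and 144 to 126, 120 and 124 CPM (-0.16 ± 0.05, edgeR adjusted p = 0.0427). Its call was lost when any 1 of the 6 libraries was left out (edgeR adjusted p = 0.0592 to 0.128), and held in 4 of the 13 alternative settings. The loader gene NIPBL and the release factor gene WAPL, at -0.06 and 0.10, were not called.

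Among 6 genes for acetylation and protection of cohesin, 1 rose and 5 were not called (median 0.04). SGOL2 (SGO2, a shugoshin that shields centromeric cohesin) went from 140, 127 and 145 to 170, 152 and 164 CPM. Its log2 fold change was 0.24 ± 0.06 SE (edgeR adjusted p = 0.0379), and the call was lost without shGFP replicate 1, shGFP replicate 2, shAURKB replicate 1 or shAURKB replicate 3 (edgeR adjusted p = 0.0778 to 0.104). In cohesin cleavage, ESPL1, the gene of the separase protease that cuts RAD21, fell from 332, 315 and 331 to 282, 289 and 301 CPM (-0.17 ± 0.04, edgeR adjusted p = 0.0262). That call was lost without shGFP replicate 1, shGFP replicate 3, shAURKB replicate 1 or shAURKB replicate 2 (edgeR adjusted p = 0.0752 to 0.0828). SGOL2 and ESPL1 each passed in 7 of the 13 alternative settings. PTTG1, which encodes the separase inhibitor securin, was at 0.05 and not called.

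STAG3, which encodes the germline counterpart of STAG1 and STAG2, fell more than any member. It stood at 56.2, 48.1 and 44.6 CPM in shGFP and at 34.2, 31.9 and 34.1 CPM in shAURKB, with no overlap between the arms. The log2 fold change was -0.57 ± 0.10 SE (edgeR adjusted p = 7.36e-03), and it passed in all 13 alternative settings (adjusted p from 1.52e-04 to 0.0311). Reads can be shared with near-identical partial copies of STAG3 in the genome, so its level is uncertain. The meiotic kleisin gene REC8, at -0.34, was not called, and SMC1B and RAD21L1, with 0 to 4 and 0 to 5 reads per library, were not tested.

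The SMC5/6 complex, the third SMC complex, acts in DNA repair. None of its 8 tested genes was called by edgeR with TMM, DESeq2 or limma-voom (median 0.05). With upper-quartile scaling edgeR called 1 lower. In the TMM fit 1 had an unadjusted p below 0.05. SMC6 stood at 101, 114 and 104 CPM in shGFP and at 94.4, 94.1 and 94.3 CPM in shAURKB (-0.18 ± 0.06, edgeR adjusted p = 0.067). EID3, with 2 to 9 reads per library, was not tested. Of 6 partners in chromosome structure, 3 rose and none fell (median 0.12). Among all tested genes 12.5% were called higher, and among those of at least 100 CPM 31.2%. TOP2A, the mitotic DNA topoisomerase, rose from 1213, 1245 and 1272 to 1420, 1403 and 1411 CPM (0.18 ± 0.03, edgeR adjusted p = 5.10e-03) and passed in all 13 alternative settings. KIF4A, the chromokinesin of the chromosome axis, rose from 105, 112 and 109 to 127, 134 and 125 CPM (0.24 ± 0.05, edgeR adjusted p = 0.0156), a call lost without shGFP replicate 1 (edgeR adjusted p = 0.0508). MCPH1, an antagonist of condensin II, rose from 52.9, 55.5 and 59.4 to 66.4, 66.7 and 64.1 CPM (0.23 ± 0.06, edgeR adjusted p = 0.0342). Its call held without shGFP replicate 3 and was lost when any other library was left out (edgeR adjusted p = 0.0648 to 0.0985). Of the 13 alternative settings, MCPH1 passed in 4.

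**Figure D4:**
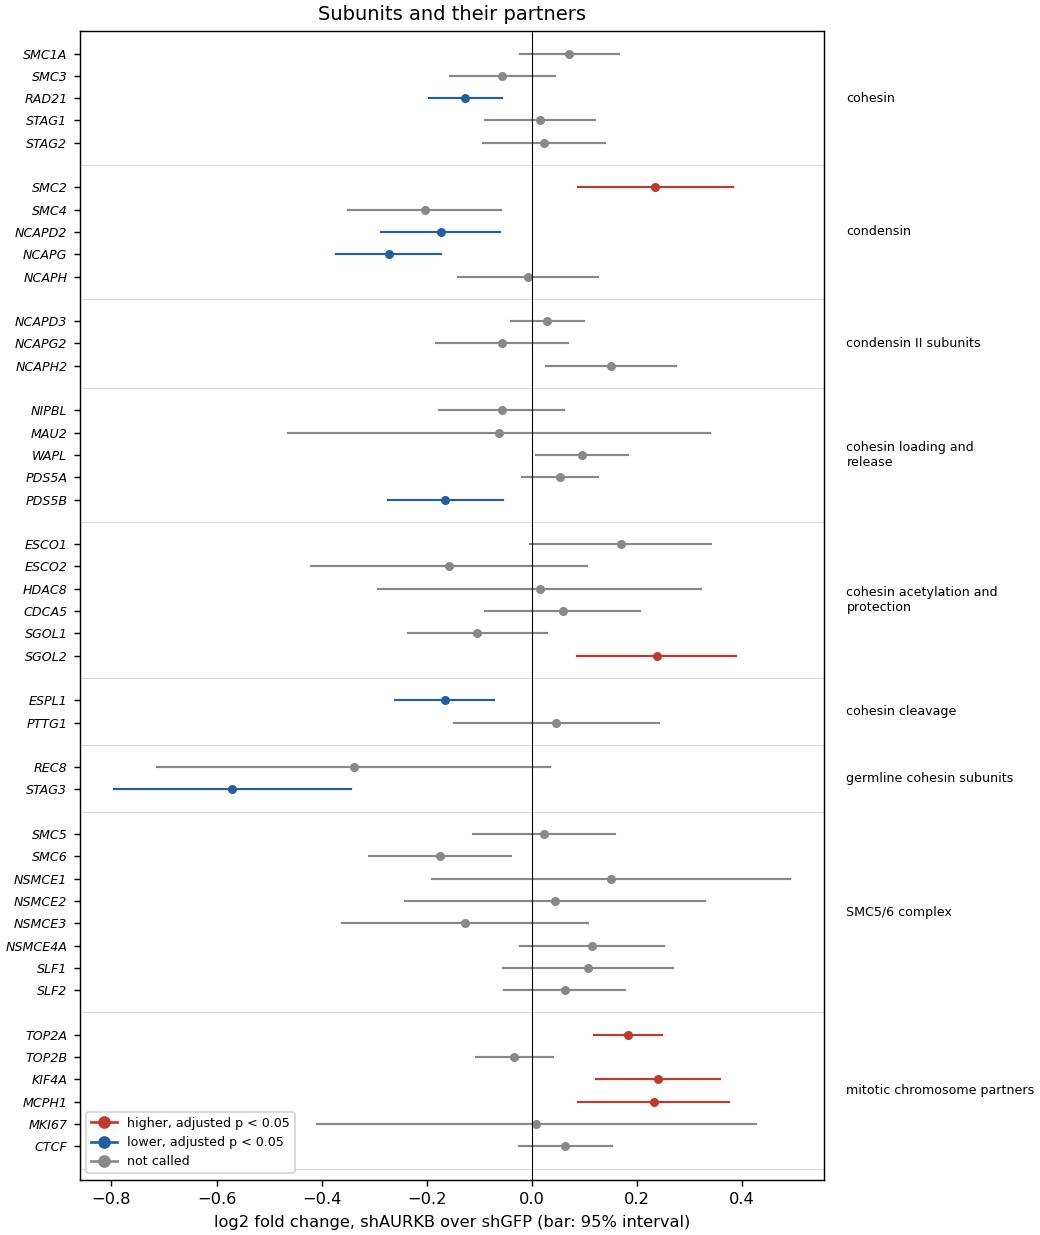
Log2 fold change of shAURKB over shGFP for the tested subunits and partner genes, 1 row per gene grouped by list, with bars for 95% intervals (n = 3 libraries per arm) and red and blue for genes called higher and lower. STAG3 at -0.57 and NCAPG at -0.27 lie lowest among the called genes, and KIF4A, SGOL2 and SMC2 at 0.24 highest.

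Both estimates and calls moved with processing choices. Over the alternatives, log2 fold changes ran from 0.02 to 0.10 for SMC1A, from -0.11 to -0.03 for SMC3 and from -0.26 to -0.15 for SMC4, and STAG1, STAG2 and NCAPH took either sign. NCAPG was called in all 13 alternative settings, SMC2 in 6, NCAPD2 and RAD21 in 5 each and SMC4 in 3, while SMC1A, SMC3, STAG1, STAG2 and NCAPH were called in none.

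**Figure D5:**
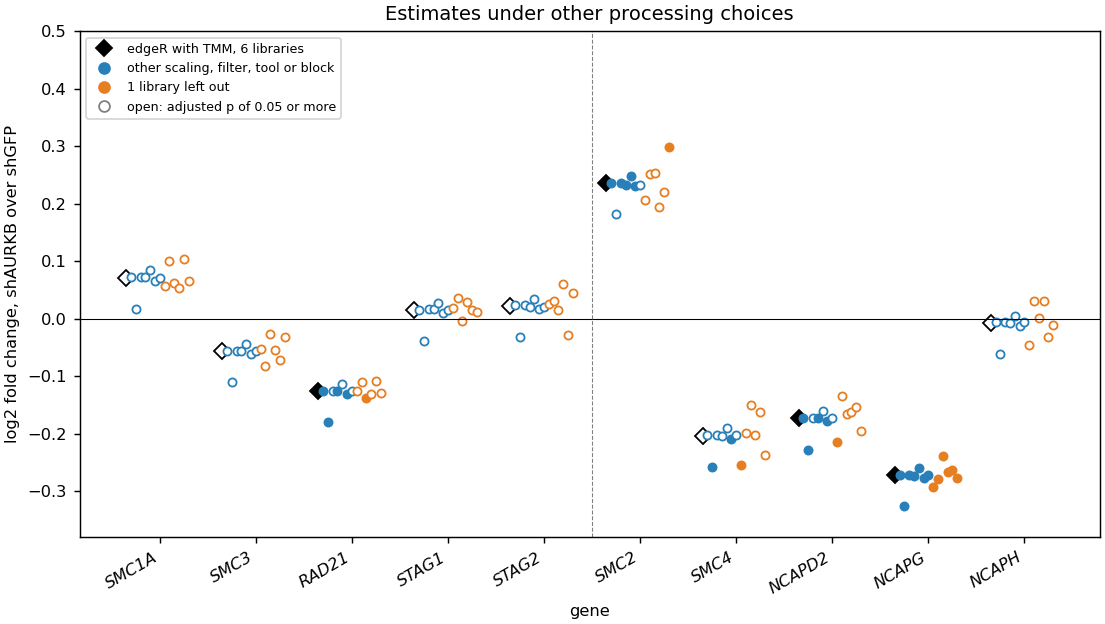
Log2 fold change of each subunit under edgeR with TMM on 6 libraries (diamond) and 13 other processing choices (circles; orange where 1 library was left out), filled where the adjusted p was below 0.05. NCAPG stays between -0.33 and -0.24 with every symbol filled, whereas the symbols of RAD21, SMC2, SMC4 and NCAPD2 are a mix of filled and open.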

How the data were processed

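Whole-number counts per Ensembl gene and FPKM were deposited by the authors for 6 libraries. HISAT2 2.0.4, StringTie 1.3.0, edgeR and GRCh38 were named as tools and build, per the submitters' processing notes. How strand and shared reads were handled is not given in the sources used here. Dividing the counts by a fixed length for each gene and by the library total returns the FPKM (largest relative spread 4.83e-05 over 12404 genes with at least 20 counts in every library). Positions of the members were identical in GENCODE release 29.

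Groups and replicate numbers came from the sample titles. Low counts were removed by filterByExpr, with a minimum count of 10 and a minimum total of 15 (99.65% to 99.8% of counts kept). The minimum of 10 holds at the median library size and for as many libraries as 1 arm has, not for every library. Counts were scaled by TMM (factors 0.979 to 1.02) and tested by quasi-likelihood in edgeR 4.0.16 (R 4.3.3), two-sided. Benjamini-Hochberg adjustment was over 14818 genes, with a threshold of 0.05. SE were derived from the fold change and its F statistic, and 95% intervals from these. Ratios of FPKM were compared by exact permutation. Chi-square per degree of freedom between replicates was 6.89 to 7.75, and none was taken as a repeat deposit. Named were AURKB, the 10 members and, per list, called genes (at most 4) or the gene with the smallest p. Other genes named, among them neighbours that overlap members and the uncalled partners, were picked with their values in view. The members and lists were chosen with earlier results of these data known. Alternatives were DESeq2 1.42.0, RLE and upper-quartile scaling, voom of limma 3.58.1, other filters, the replicate number as a block and each library left out.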

Additional observations from a re-analysis of the deposited data

How the results depend on the processing

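With the replicate number as a block, 1027 genes were lower (1609 without it), 0 members were higher and 1 lower, 0 genes of cohesin loading and release and 0 of cohesin cleavage were lower, and RAD21 (-0.13), SMC2 (0.23) and NCAPD2 (-0.17) were no longer called. Same-numbered libraries did not deviate together (correlations -0.03 to 0.02 over 9872 genes), so the numbers are not taken to pair them. Upper-quartile scaling gave 0 members higher, 0 genes of acetylation and protection higher and 1 gene of SMC5/6 lower, with STAG1 at -0.039, STAG2 at -0.032, SMC2 at 0.18 (lost) and SMC4 at -0.26 (gained). DESeq2 gave 1 member and 0 loading and release genes lower and lost RAD21 (-0.13) and NCAPD2 (-0.17). Without a low-count filter 1 member and 0 genes each of loading and release and of cleavage were lower, 0 of acetylation and protection were higher, RAD21 (-0.11) and NCAPD2 (-0.16) were lost and NCAPH was at 0.0054. A filter of 1 CPM in 3 libraries gained SMC4 (-0.21). Over all tested genes, edgeR with TMM called 1847 higher and 1609 lower. The block called 1286 higher, and DESeq2 called 1536 higher and 1132 lower. Upper-quartile scaling called 1325 higher and 2087 lower. Without a low-count filter 1554 of 27786 genes were higher and 1162 lower, and with the 1 CPM filter 1799 of 14655 were higher and 1636 lower. The causes were not tested.

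Leaving out 1 library gave 1271 to 1336 genes higher and 998 to 1056 lower, 0 to 1 members higher and 1 to 3 lower, 0 to 1 genes of acetylation and protection higher, 0 to 1 of cleavage and 0 to 0 of loading and release lower, and 1 to 3 chromosome partners higher. Log2 fold changes ran from -0.14 to -0.11 (RAD21), 0.19 to 0.30 (SMC2), -0.25 to -0.15 (SMC4), -0.21 to -0.13 (NCAPD2), -0.045 to 0.031 (NCAPH), -0.0046 to 0.036 (STAG1) and -0.028 to 0.06 (STAG2), and the STAG2 to STAG1 ratio from -0.044 to 0.030. In TPM, no member's difference in level between the arms moved by more than the spread between replicates. A fixed length per gene cancels in that difference, so the longest coding transcript cannot change it, but it changes the levels themselves and their order. Without 1 library SMC1A ran from 0.05 to 0.10 and SMC3 from -0.08 to -0.03, and upper-quartile scaling put them at 0.02 and -0.11, all not called. With 3 libraries per arm, members whose 95% interval includes 0 are not shown to be equal.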

Other observations

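SH2D1A, the gene of the T-cell signalling adaptor SAP, lies within the annotated span of STAG2 on the same strand and shares 0 exonic bases with it. Its reads numbered 1067, 1049 and 876 in the shGFP libraries, by replicate, against 3013, 2770 and 1095 in shAURKB, so shAURKB replicate 3 lay near the controls. In STAG2 itself the same libraries had 3899, 3818 and 4384 against 4055, 4105 and 3827 reads. MKI67, the gene of the chromosome surface protein Ki-67, varied most within the arms among the chromosome partners, at 369, 374 and 484 CPM in shGFP and 521, 335 and 377 CPM in shAURKB. These genes were chosen after their values were seen.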
